A study of Mus musculus with 9 samples.

Results

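Penk1, Nts and Avpr1a are 3 genes of neuropeptide signalling that the study's supplementary gene list names, out of 302 genes named there and 23473 probes on the array. Each had 1 probe. The genes were chosen by measured values, since the study built that list from probes that differed between its 4 groups on 8 of the 9 arrays, so the differences between groups given here are a description of the genes that were picked, with standard errors. Limma calls of these genes are stated beside the share of all probes called. The study's selection tested the 4 groups together, and so used the values behind each of these contrasts. No call given below is therefore evidence for a gene, and nothing is read from it. Cells came from P0-Cre/Floxed-EGFP double transgenic mouse embryos at E12.5, in which Cre driven by the P0 promoter removes a CAT cassette ahead of EGFP in neural crest cells and their descendants, and were sorted by EGFP. EGFP+ cells of the craniofacial region (Cp) were run on 2 arrays and those of the trunk (Tp) on 3, and the EGFP- cells of the same regions (Cn and Tn) on 2 arrays each. All carried both transgenes, on a C57/BL6J background crossed to ICR, and heart fields had been taken off the trunk. The study described minor P0-Cre labelling in the notochord, so EGFP+ cells need not all be of the neural crest.

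Neuropeptides are cut from larger precursor proteins, stored in granules and released to act on receptors of nearby cells. Penk1, now called Penk, encodes proenkephalin, the precursor of the enkephalins, which are opioid peptides. Outside the nervous system, proenkephalin mRNA is known from embryonic mesenchyme. Nts encodes the precursor of neurotensin and neuromedin N, peptides of the brain and of endocrine cells of the gut. Avpr1a encodes the V1a vasopressin receptor, a receptor coupled to G proteins that raises calcium inside the cell and is known from smooth muscle, liver and brain.

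The promoters of Nts and Avpr1a are shown, and no promoter sequence of Penk was in the sources used here. The windows hold the 250 bases before the gene's start in RefSeq (build GRCm38.p6) and are written 5′ to 3′ on the strand of the gene. Nts lies at chr10:102490419-102490668 on the minus strand and Avpr1a at chr10:122448249-122448498 on the plus strand. Capitals mark matches to the 3 motifs searched on both strands.
Nts: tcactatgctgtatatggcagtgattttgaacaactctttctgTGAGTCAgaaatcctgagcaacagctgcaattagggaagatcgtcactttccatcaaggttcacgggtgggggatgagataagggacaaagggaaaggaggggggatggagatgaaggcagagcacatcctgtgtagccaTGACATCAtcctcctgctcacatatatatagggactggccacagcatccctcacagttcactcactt
Avpr1a: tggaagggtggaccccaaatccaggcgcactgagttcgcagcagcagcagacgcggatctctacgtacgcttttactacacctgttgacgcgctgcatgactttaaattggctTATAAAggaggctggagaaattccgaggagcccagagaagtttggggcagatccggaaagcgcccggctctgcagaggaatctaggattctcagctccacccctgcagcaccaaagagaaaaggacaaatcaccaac
The Nts window held TGAGTCA, a match to the AP-1 motif TGANTCA, 207 to 201 bases before the start. It also held TGACATCA, a match to the CRE-like motif TGACNTCA, 67 to 60 bases before the start, and these matches did not overlap. Of 32851 RefSeq promoter windows of the same length, 6.75% held the AP-1 letters and 7.49% the CRE-like letters. The Avpr1a window held TATAAA, the TATA box letters, 137 to 132 bases before the start, as did 12.4% of the windows. The GC content was 48% for Nts and 53.6% for Avpr1a, with a median of 52.4% over all windows. Nothing measured here bears on binding to these letters. Penk was named only.

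Signal over background differed between the genes. Over the blank spots, whose mean stands for background, the median probe gave a signal of 1.81 to 3.21 times, and 80.0% to 90.2% of probes exceeded the blank mean by more than 2 SD, the limit used here. Tp replicate 3, the array that the study's selection left out, had both lowest values. The array is a 1-colour array (Cy5), and levels are given as the log2 of the processed intensity, which the authors scaled to a median of 25 on each array. A probe's level can be set against the same probe on another array, not against another probe.

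Penk1 was highest in Cp and lowest in Tp. Its log2 level was 9.71 and 9.26 in Cp, against 6.31, 6.07 and 6.30 in Tp. In EGFP- cells it was 8.36 and 8.63 in Cn, against 7.68 and 7.56 in Tn. The order of the groups was therefore Cp, Cn, Tn, Tp, and no neighbours in this order overlapped, with gaps between the nearest arrays of 0.63, 0.68 and 1.25. The spot was 43.1 to 87.9 times the blank mean in Cp and 4.66 to 8.82 times in Tp, so that Penk1 was measured well above the blanks in every group. It was 26.4 to 30.4 times the blank mean in Cn and 19.0 to 19.3 times in Tn.

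Nts followed the region more than the EGFP sort. Its log2 level was 7.48 and 6.79 in Cp, against 3.10, 3.55 and 3.38 in Tp. In EGFP- cells it was 6.24 and 6.53 in Cn, against 2.82 and 2.78 in Tn. The order was Cp, Cn, Tp, Tn, with a wide gap of 2.70 between the nearest arrays of Cn and Tp. The gap of 0.26 between Cp and Cn was smaller than the SD of Cp, 0.49, and the gap of 0.28 between Tp and Tn was larger than the SD of Tp, 0.23, and of Tn, 0.02. Spots in the trunk were dim, at 1.57 to 1.97 times the blank mean in Tp and 1.64 to 1.67 times in Tn, but above the limit on every array. In the craniofacial groups the spot was 8.59 to 19.1 times the blank mean in Cp and 7.12 to 7.61 times in Cn.

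Avpr1a had the order of Penk1. Its log2 level was 4.76 and 4.47 in Cp, against 0.58 and -0.01 on the Tp arrays that list a value. The cell of Tp replicate 3 is empty in the processed table and was set to that array's lowest value, 0.32. In EGFP- cells Avpr1a was 3.27 and 2.83 in Cn, against 1.89 and 2.25 in Tn. No neighbouring groups overlapped, with gaps of 1.20, 0.57 and 1.31 in the order Cp, Cn, Tn, Tp. The Avpr1a spots were dim throughout, at 2.41 to 3.87 times the blank mean in Cp, 1.05 to 1.24 times in Tp, 1.51 to 1.88 times in Cn and 1.36 to 1.38 times in Tn. Only 1 of the 3 Tp arrays lay above the limit, so the Tp level of Avpr1a is close to that of a blank spot.

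**Figure D1:**
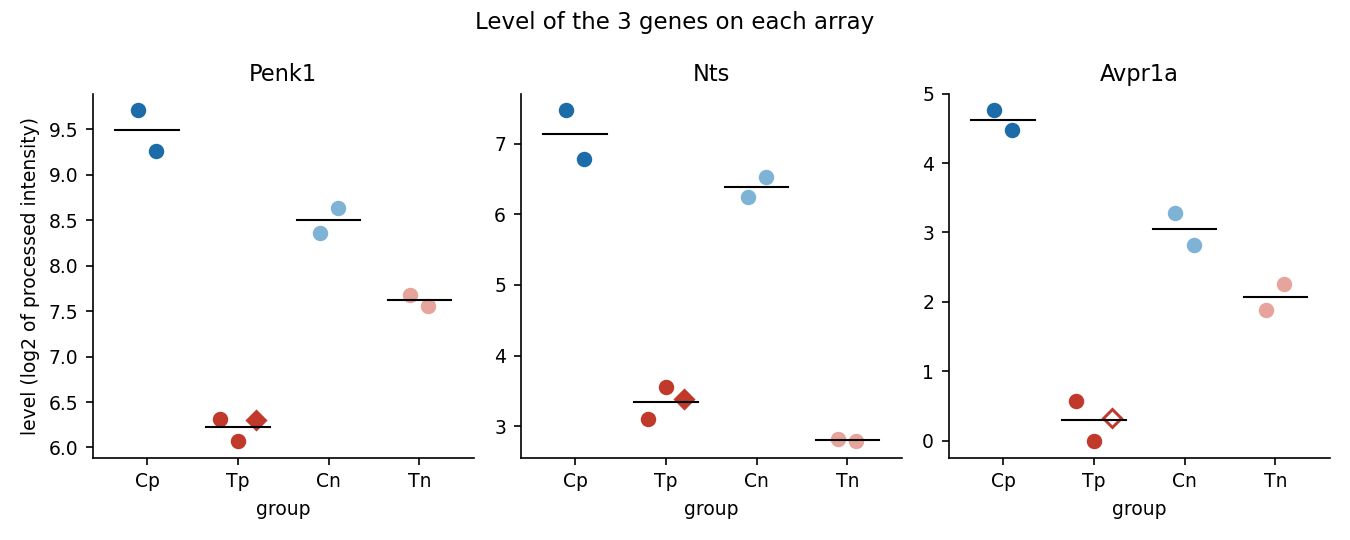
Log2 of the processed intensity (y axis, a separate scale for each gene) of Penk1, Nts and Avpr1a on each array, by group (x axis). Each point is 1 array, the line is the group mean, the diamond is Tp replicate 3 and the open diamond is a value set to the array's lowest. Both Cp arrays lie above all others for each gene, and Tp is the lowest group for Penk1 (mean 6.23) and Avpr1a (mean 0.30) but not for Nts (mean 3.34, against 2.80 in Tn).

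**Figure D2:**
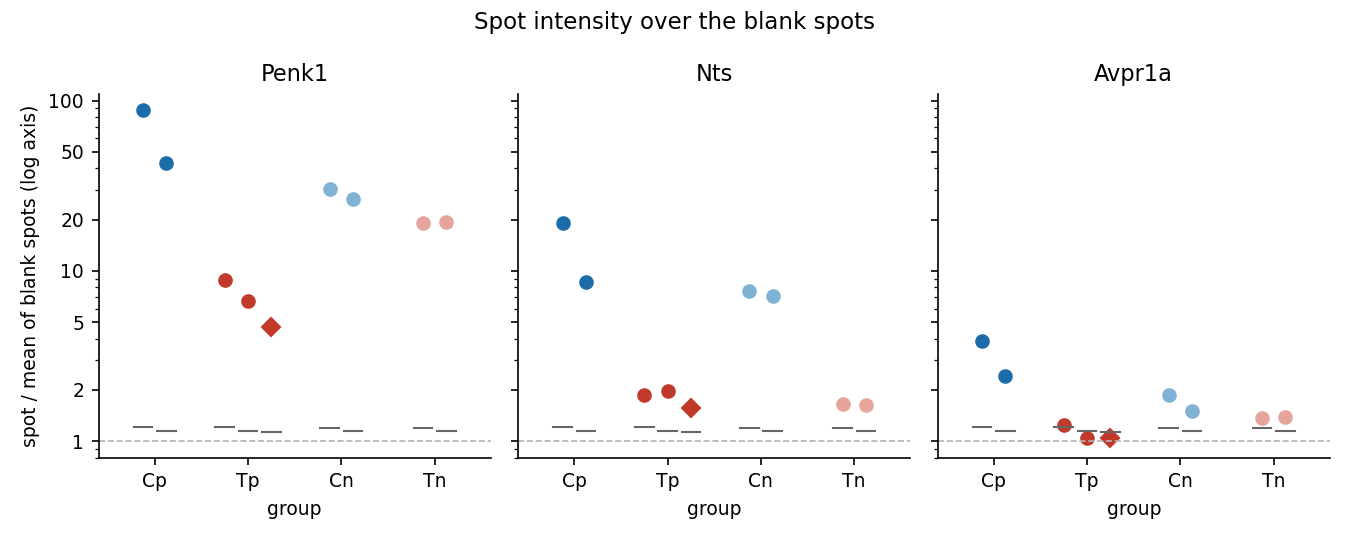
Median spot intensity divided by the mean of the blank spots (y axis, log scale) on each array, by group (x axis). The short grey lines mark the limit of each array (blank mean plus 2 SD), the dashed line marks 1 and diamonds are Tp replicate 3. Penk1 lies at 4.66 or more on every array, whereas Avpr1a lies at 3.87 or less and falls below the limit on Tp replicates 2 and 3.

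For all 3 genes both Cp arrays exceeded every other array. The same was true of 6.3% of the 23062 probes tested, and nothing is read from the count, because the genes were chosen for differences between these groups. The array that the choice did not use, Tp replicate 3, gave levels of 6.30 for Penk1 and 3.38 for Nts, both within the range of the other Tp arrays. Its Avpr1a spot, at 1.05 times the blank mean, was below the limit. On this array Penk1 and Nts were also below their lowest Cp arrays. The choice did use those Cp arrays, so this is not an independent check. Avpr1a had no listed value on this array to compare.

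The range of the group means over the 8 arrays of the selection was 3.30 on the log2 scale for Penk1, 4.33 for Nts and 4.34 for Avpr1a. The study asked for a range of at least 4-fold, a log2 range of 2. The nearest probe inside this threshold had a range of 4.01-fold and the nearest outside one of 4.0-fold, and the 3 genes lay far from both. All were placed in the same cluster, cluster A, by the study.

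The comparison of Cp with Tp asks how neural crest-derived cells differ by region. Penk1 averaged 9.49 ± 0.32 in Cp and 6.23 ± 0.14 in Tp (SD, n = 2 and 3), a log2 difference of 3.26 (SE 0.25), or 9.59-fold. Nts averaged 7.13 ± 0.49 in Cp and 3.34 ± 0.23 in Tp, a difference of 3.79 (SE 0.27), or 13.8-fold. Avpr1a averaged 4.62 ± 0.20 in Cp and 0.30 ± 0.29 in Tp, a difference of 4.32 (SE 0.27), and its size depends on the Tp values at the blank level. All 3 genes passed limma at an adjusted p of 0.05 in this comparison, as did 8.69% of all probes tested (2004, of which 909 were higher in Cp and 1095 lower). The median difference over all probes was 0.04.

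The comparison of Cp with Cn sets EGFP+ cells against the rest of the craniofacial region. Avpr1a averaged 4.62 ± 0.20 in Cp and 3.05 ± 0.32 in Cn (SD, n = 2 each), a log2 difference of 1.57 (SE 0.30), or 2.97-fold. Penk1 averaged 9.49 ± 0.32 in Cp and 8.50 ± 0.19 in Cn, a difference of 0.99 (SE 0.27). Nts averaged 7.13 ± 0.49 in Cp and 6.39 ± 0.20 in Cn, a difference of 0.75 (SE 0.30). Of the 3 genes, Avpr1a passed limma here as higher in Cp, as did 1.28% of all probes (5.36% in either direction), and Penk1 and Nts did not. The call of Avpr1a was lost without Cp replicate 1 (difference 1.42), without Cn replicate 2 (1.34), and with the blank spots subtracted from the scanner signal (1.46). All 3 genes were higher on each Cp array than on each Cn array, as were 28.5% of all probes, and on each Cp array than on each Tp array, as were 17.2%.

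In the trunk, Penk1 lay the other way and Nts did not, and Avpr1a was at or near the blank level in Tp. Penk1 averaged 6.23 ± 0.14 in Tp and 7.62 ± 0.09 in Tn (SD, n = 3 and 2), a log2 difference of -1.39 (SE 0.25), or 2.63-fold lower in Tp. Avpr1a averaged 0.30 ± 0.29 in Tp and 2.07 ± 0.26 in Tn, a fitted difference of -1.77 (SE 0.27). Its size rests on Tp values of which 1 of 3 was above the limit and 1 was set to the array's lowest, and with the ring as background it was 0.01. Nts averaged 3.34 ± 0.23 in Tp and 2.80 ± 0.02 in Tn, a difference of 0.54 (SE 0.27). Penk1 and Avpr1a passed limma as lower in Tp, as did 4.07% of all probes (6.35% in either direction), and Nts did not pass. Avpr1a no longer passed with the blank spots as background (-1.55). Every Tp array lay below every Tn array for Penk1 and Avpr1a, as for 18.6% of all probes, and above for Nts, as for 9.05%. Levels higher in Cp than in Cn together with levels lower in Tp than in Tn, on every array, were found for Penk1 and Avpr1a and for 6.83% of all probes.

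Between the EGFP- groups Nts kept its difference by region. Nts averaged 6.39 ± 0.20 in Cn and 2.80 ± 0.02 in Tn (SD, n = 2 each), a log2 difference of 3.59 (SE 0.30), or 12-fold. Penk1 averaged 8.50 ± 0.19 in Cn and 7.62 ± 0.09 in Tn, a difference of 0.88 (SE 0.27), or 1.84-fold. Avpr1a averaged 3.05 ± 0.32 in Cn and 2.07 ± 0.26 in Tn, a difference of 0.98 (SE 0.30). Nts passed limma in this comparison, where 1.27% of all probes did (0.525% as higher in Cn), and Penk1 and Avpr1a did not. All 3 genes were higher on each Cn array than on each Tn array, as were 11.2% of all probes.

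The regional difference in EGFP+ cells minus that in EGFP- cells was 2.38 (SE 0.37) for Penk1, 3.34 (SE 0.41) for Avpr1a, which rests on the same Tp values near the blank level, and 0.20 (SE 0.41) for Nts. Penk1 and Avpr1a passed limma for this contrast, as did 5.97% of all probes (2.97% with a positive sign), and its median over all probes was 0.18. The medians over all probes were -0.10 for Tp minus Tn, -0.15 for Cn minus Tn and 0.09 for Cp minus Cn. For Nts the regional difference was 3.79 in EGFP+ cells and 3.59 in EGFP- cells, and the contrast between them turned to -0.11 when the values were quantile normalized. Because the arrays hold RNA of sorted populations, fewer cells that express a gene and less RNA per cell cannot be told apart.

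Scan dates in the file headers put replicate 1 of all 4 groups in scan 1, the second replicates of Cp and Cn in scan 2, those of Tp and Tn in scan 3, and Tp replicate 3 alone in scan 4. With the scan as a block, which left 2 residual degrees of freedom, no gene's call changed. Only scan 1 held both regions, so the block can compare the regions only through the 1 array of each group there. With the block the Cp minus Tp difference was 3.25 for Penk1, 4.01 for Nts and 4.46 for Avpr1a. Within scan 1 it was 3.40 for Penk1, 4.38 for Nts and 4.19 for Avpr1a. With the block, Cp minus Cn was 0.99 for Penk1, 0.75 for Nts and 1.57 for Avpr1a.
Within scans 1 and 2, Cp minus Cn was 1.35 and 0.63 for Penk1, 1.23 and 0.26 for Nts, and 1.49 and 1.65 for Avpr1a. All of these were above 0, although those of Nts lay far apart. With the block, Tp minus Tn was -1.43 for Penk1, 0.52 for Nts and -1.79 for Avpr1a, and Cn minus Tn was 0.83, 3.79 and 1.11 in the same order of genes. Within scans 1 and 3, Tp minus Tn was -1.37 and -1.49 for Penk1, 0.28 and 0.76 for Nts, and -1.31 and -2.26 for Avpr1a. Within scan 1, Cn minus Tn was 0.68 for Penk1, 3.43 for Nts and 1.38 for Avpr1a. The directions within scans were those over all arrays.

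The size of these differences depended on the background. The scanner also reads a ring around each spot, and the ring followed the spot, with correlations of their logs across probes of 0.909 to 0.985 per array. With the ring as background (normexp with an offset of 50, then quantile normalization) Cp minus Tp was 2.19 (SE 0.39) for Penk1, 1.26 (SE 0.23) for Nts and 0.22 (SE 0.11) for Avpr1a. None of the 3 genes passed limma in any comparison on that scale, where 86 probes in all passed between Cp and Tp. Tp minus Tn of Avpr1a turned to 0.01 (SE 0.11), against -1.77 in the processed values. With a pseudocount of 4 added to the processed values, Cp minus Tp of Avpr1a was 2.45, Tp minus Tn -0.65, Cn minus Tn 0.58 and the regional contrast 1.86, all with the direction they had without it. With the mean of the blank spots subtracted instead, Cp minus Tp was 3.31 for Penk1, 3.75 for Nts and 4.30 for Avpr1a.

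**Figure D3:**
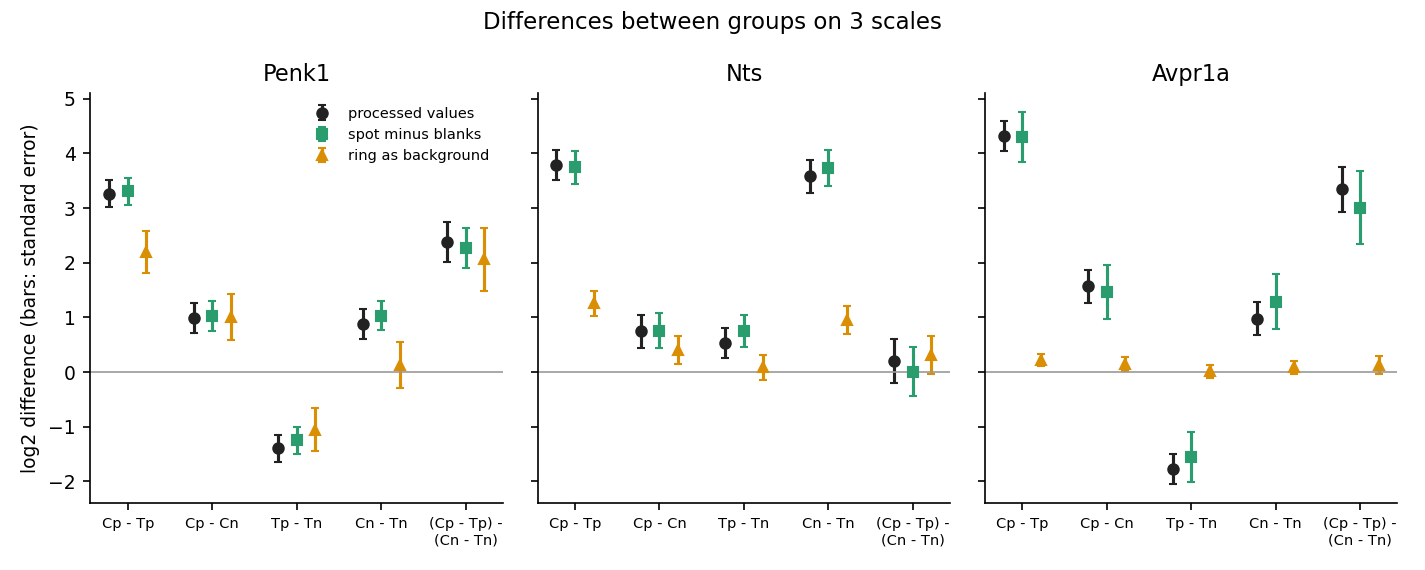
Log2 differences between groups (y axis; bars are the standard errors of the limma fit) of Penk1, Nts and Avpr1a in 5 comparisons (x axis), on the processed values, on the spot minus the blank spots and with the ring as background. The processed and blank-corrected values lie close together, whereas the ring brings Cp minus Tp of Avpr1a to 0.22, against 4.32 in the processed values.

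A list of 146 genes of neuropeptide signalling was made by role, and 8 of them besides the 3 genes have a name here. These 8 genes were also selected by the study on these arrays and give no independent evidence of a direction. Between Cp and Tp, 7 of the 8 fell and 1 rose in limma, with a median log2 difference of -3.58. Of all probes, 4.75% were lower and 3.94% higher in this comparison. Of the 8, 5 were lower and 0 higher in Cp than in Cn, where 4.08% of all probes were lower. In that comparison 7 of the 8 had an unadjusted limma p under 0.05, as did 3521 of the 23062 probes tested. In Tp, 5 were higher and 1 lower than in Tn, where 2.29% of all probes were higher. Between Cn and Tn, 0 of the 8 passed the adjusted test, where 1.27% of all probes did. An unadjusted limma p under 0.05 was found there for 1 of the 8 and for 2323 of the 23062 probes tested. The direction that Penk1, Nts and Avpr1a had between Cp and Tp was thus shared by 1 of these genes.

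Among the precursors, Cartpt, which encodes the CART peptides, was 4.04 and 3.62 in Cp, against 8.45, 8.79 and 8.49 in Tp. It was 5.86 and 5.60 in Cn, against 5.14 and 5.47 in Tn. Cp lay below and Tp above both EGFP- groups, with Cp minus Tp at -4.75 (SE 0.26) and Tp minus Tn at 3.27 (SE 0.26). Gal, the precursor of galanin, was 6.0 and 5.76 in Cp, against 8.38, 8.17 and 8.07 in Tp. It was 5.67 and 5.93 in Cn and 5.91 and 5.98 in Tn. Gal was thus high in Tp, and the other groups overlapped.

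Among the receptor genes of this list, the only other named 1 was Ramp2, a membrane partner that gives the calcitonin receptor-like receptor its affinity for adrenomedullin. The list did not hold Ednrb, a receptor for endothelin peptides, which is in the list for neural crest and glia below. Ednrb had the opposite directions, with Cp minus Tp at -3.29 (SE 0.26) and Tp minus Tn at 3.57 (SE 0.26). The values of Ramp2 follow. Ramp2 was 6.92 and 6.55 in Cp, against 4.34, 4.50 and 3.95 in Tp, and 5.78 and 5.77 in Cn, against 6.50 and 6.22 in Tn. Its Cp minus Tp difference was 2.47 (SE 0.26) and its Tp minus Tn difference -2.10 (SE 0.26), the directions of Penk1 and Avpr1a. Its Cp minus Cn difference, 0.96 (SE 0.28), did not pass.

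The other 5 genes encode proteins that cut peptides or fill granules. They are Pcsk2, a convertase that cleaves precursors such as proenkephalin, Scg5, the chaperone of that convertase, the granins Chga and Scg3, and Resp18, a protein of neuroendocrine cells. All 5 fell in Cp against Tp, with log2 differences of -2.37 (Pcsk2), -3.58 (Scg5), -4.04 (Chga), -4.27 (Scg3) and -3.58 (Resp18). Against Cn, 4 of them fell in Cp, with differences of -3.56 (Scg5), -2.01 (Chga), -3.25 (Scg3) and -3.58 (Resp18). Pcsk2 did not pass there, with a difference of -0.99 (SE 0.31). Penk1 and Pcsk2 therefore differed in opposite directions between Cp and Tp: Pcsk2 averaged 4.95 ± 0.11 in Cp and 7.32 ± 0.43 in Tp (SD, n = 2 and 3).

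**Figure D4:**
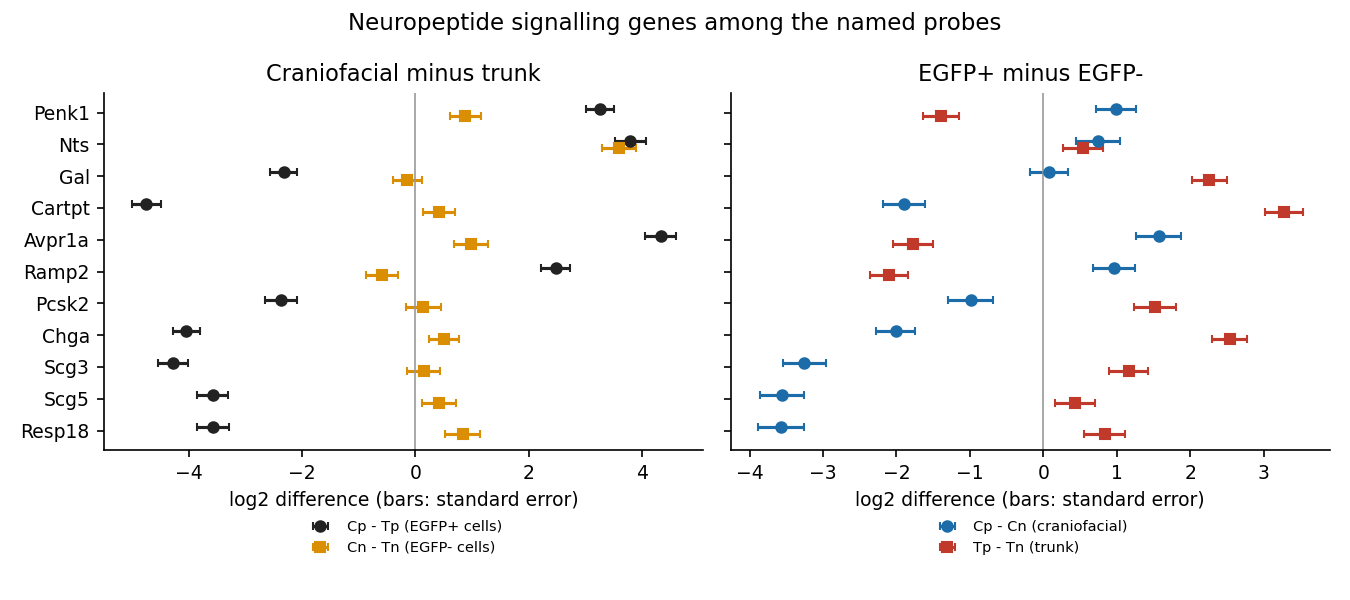
Log2 differences (x axis; bars are standard errors) of the 11 named genes of neuropeptide signalling (y axis), for craniofacial minus trunk on the left and EGFP+ minus EGFP- on the right. Between Cp and Tp, Penk1, Nts, Avpr1a and Ramp2 lie above 0 and the other 7 genes below, whereas between Cn and Tn Nts lies at 3.59 and the other 10 genes within 1 of 0.

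Markers of cell types moved with these comparisons, and their part in the results was not tested. The study chose all of these marker genes on the same arrays as well. The lists for craniofacial mesenchyme, peripheral neurons and forebrain lay in its clusters A, C and D, in that order. The erythroid and myeloid lists lay in its cluster F, of genes raised in Cn and Tn. The main directions of all these lists were thus set by that choice. In a list for craniofacial mesenchyme, 5 of 5 genes (among them Barx1, Cart1 and Dlx6) rose in Cp against Tp, and 4 of 5 in Cn against Tn. In Cp against Cn, 3 of 5 rose, and in Tp against Tn, 2 of 5 fell, namely Omd (-1.63) and Cart1 (-1.15), as Penk1 did. Their summed processed intensity was 855 to 1133 in Cp, 67.3 to 79.8 in Tp, 426 to 440.4 in Cn and 61.9 to 71.0 in Tn. In a list for peripheral neurons (Gap43, Isl1, Isl2 and others), 12 of 12 genes fell in Cp against Tp, and their sum was 1294 to 1698 in Cp, 8630 to 10508 in Tp, 2367 to 2522 in Cn and 1493 to 1744 in Tn. This list had the direction opposite to the 3 genes between Cp and Tp. The sums follow the brightest genes, such as Gap43, at 10.06 in Cn and 9.17 in Tn. The median log2 difference of the 12 genes was -0.39 for Cn minus Tn and 0.46 for Cp minus Cn.
In a list for forebrain (Dlx1, Dlx2, Emx1 and others), 10 of 10 genes rose in Cn against Tn, as Nts did. The forebrain sum was 480.4 to 484 in Cp, 313 to 380 in Tp, 3398 to 3507 in Cn and 338 to 343 in Tn. In Cp and Tp the sum follows its brightest genes, Dlx1 and Dlx2, at 7.84 and 7.25 in Cp and 6.84 and 6.79 in Tp. Unlike most of the list, these genes were higher in Tp than in Tn, by 2.35 and 2.33. Nts differed from this list between Cp and Cn, where 9 of the 10 forebrain genes were lower in Cp. An erythroid list of 6 genes (8 probes) had a sum of 913 to 1663 in Cp, 1706 to 2570.0 in Tp, 103658 to 135685 in Cn and 99408 to 121316 in Tn, so that both EGFP+ groups lay far below both EGFP- groups. The myeloid list (C1qb, C1qc, Cd52 and others) was lower on 9 of 9 genes in each EGFP+ group, with a sum of 49.8 to 56.8 in Cp, 61.2 to 78.0 in Tp, 409.9 to 439.7 in Cn and 552 to 718 in Tn. The list for skeletal muscle (Chrna1, Myh3, Myl1 and others) was lower on 8 of 8, with a sum of 69.7 to 79.2 in Cp, 111 to 140.3 in Tp, 724 to 1013 in Cn and 1530 to 1603 in Tn. Of all probes, 4.08% were lower in Cp than in Cn and 4.07% lower in Tp than in Tn. The study chose these marker genes on the same arrays, so nothing is read from their counts.
A list of 8 genes of neural crest and glia, among them Ednrb, Entpd2 and Fabp7, rose on 8 of 8 in Tp against Tn. In Cp against Cn, 1 of 8 rose. All 8 were in cluster C, the study's cluster of genes raised in Tp. Their rise in Tp was therefore set by that choice and does not check the label of neural crest cells. The study reported other neural crest markers as higher in Cp than in Tp. The sum of the 8 genes was 1830 to 2113 in Cp and 13767 to 15433 in Tp. It was 2221 to 2237 in Cn and 2174 to 2542 in Tn. The sum in Cp, where Penk1, Nts and Avpr1a were highest, was not above that of Cn, but it follows its brightest gene, Fabp7. Fabp7 averaged 10.75 in Cp and 11.03 in Cn, whereas the median Cp minus Cn difference of the 8 genes was 0.65. No gene of these lists was below the limit on every array of a group, apart from Was (myeloid) and Smpx (muscle) in Cp.

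The named probes whose pattern was most like each gene were found by the root mean square difference (RMS) of centred log2 values over the 9 arrays, among 305 other named probes. For Penk1 they were Cpxm2 (RMS 0.23), a member of the carboxypeptidase family, S100a4 (0.31), a calcium-binding protein, Crym (0.32), which binds thyroid hormone, Rspo2 (0.35), an enhancer of Wnt signalling, and EG636791 (0.37). For Avpr1a they were Omd (0.29), a proteoglycan of bone, EG636791 (0.41), Penk1 (0.45), S100a4 (0.46) and Rspo2 (0.51). For Nts they were the homeobox genes Barx1 (0.55), Lhx8 (0.58) and Cart1 (0.74), then Rspo2 (0.79) and Tcfap2c (0.86), which encodes a factor of the AP-2 family. Among the 3 genes, Penk1 and Avpr1a differed by 0.45, where Avpr1a ranked 6th from Penk1 and Penk1 3rd from Avpr1a. Nts and Penk1 differed by 1.02, where Nts ranked 35th from Penk1 and Penk1 11th from Nts. Nts and Avpr1a differed by 1.03, where Nts ranked 25th from Avpr1a and Avpr1a 12th from Nts. All these probes were in cluster A of the study, and Omd, Barx1, Lhx8 and Cart1 are also in the list for craniofacial mesenchyme. Each measure rests on 9 arrays in 4 groups, and the arrays share their scan and the study's selection.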

How the data were processed

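RNA from sorted cells was hybridised to 9 1-colour Toray 3D-Gene arrays. The authors deposited scanner intensity values of each spot and its ring, and 1 table of processed values for the series. The deposited processed values are a linear intensity. They tracked the spot median after the blank level was taken off, rescaled on each array, with 781 to 2776 of 23473 probes left empty. How they were calculated, and the scanner's software, was not given in the sources used here, and the study names R and GeneSpring. The labels name a miRNeasy kit and the study's methods an RNeasy kit. The detector gain was 31 to 37.

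The log2 of the processed intensity deposited by the authors was analysed, with empty cells set to the array's lowest value. Probes listed on at least 2 arrays (23062) entered 1 limma fit (version 3.58.1, R 4.3.3) of the 4 groups over all 9 arrays, with Benjamini-Hochberg adjustment at 0.05 (5 residual degrees of freedom). The fit was tested on simulated data. Columns of the study's own selection were used only for probe names, which were read for 306 of 347 probes. The genes Penk1, Nts and Avpr1a and all gene lists were chosen with earlier results of these data known. Named were these 3 genes, the listed neuropeptide genes that have a name, the 5 named probes nearest in pattern to each gene, and up to 3 alphabetical examples of each marker list. The blank spots and the ring as background, quantile normalization, empty cells left missing, a pseudocount of 4, filters, blocks and leaving out each array were tried as alternatives. The replicates are called biological duplicates in the study. Separate litters are not stated, and p-values then cover only array-to-array spread, which may be technical. The replicate numbers were not taken as pairs, since the correlations of deviations between groups, 0.06 to 0.41, were not all over 0.1. The highest were those of Cp with Cn and of Tp with Tn, both 0.41, and the lowest that of Cn with Tn. A pairing within regions is thus covered only by the alternatives with blocks. One erythroid marker is not reported here, and the sum of its list was taken without it.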

Additional observations from a re-analysis of the deposited data

Results flagged for a closer look

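In 2 of the 3 genes every array of EGFP+ cells lay above every array of EGFP- cells in the craniofacial region and below in the trunk, as in 6.83% of the 23062 probes tested. The EGFP+ minus EGFP- difference of the craniofacial region minus that of the trunk was 2.38 for Penk1 and 3.34 for Avpr1a on the log2 scale. Ramp2 had the same pattern, with 3.07. The opposite pattern, lower with EGFP in the craniofacial region and higher in the trunk on every array, was found in 2.9% of all probes tested and for Cartpt (-5.17), Chga (-4.55), Scg3 (-4.42), Resp18 (-4.41), Scg5 (-3.99) and Pcsk2 (-2.51). The difference between regions passed limma for each of these 9 genes, but the study chose them on these arrays, so the calls are not independent evidence. The value of Avpr1a rests on Tp spots near the blank level. No explanation was tested.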

How the results depend on the processing

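The number of arrays limits the precision, and the spots of Avpr1a in Tp were close to the blanks. With the ring as background, the log2 differences of Penk1 were 2.19 (Cp minus Tp), -1.05 (Tp minus Tn), 0.13 (Cn minus Tn) and 2.07 (regional difference with EGFP minus without). Those of Nts were 1.26 (Cp minus Tp), 0.40 (Cp minus Cn), 0.086 (Tp minus Tn) and 0.95 (Cn minus Tn), and those of Avpr1a 0.22, 0.15, 0.012 and 0.085 in the same comparisons and 0.14 for the last, so that Tp minus Tn of Avpr1a reversed. On that scale 86, 32, 125, 38 and 44 probes passed in the 5 comparisons and 3, 1, 4, 1 and 3 other neuropeptide genes, in the order Cp with Tp, Cp with Cn, Tp with Tn, Cn with Tn and the difference of differences. The offset of 50 narrows differences of dim probes by construction. With a pseudocount of 4, which narrows them too, Nts was 3.35 (Cp minus Tp) and 3.0 (Cn minus Tn), and Avpr1a was 2.45 (Cp minus Tp), 1.21 (Cp minus Cn), -0.65 (Tp minus Tn), 0.58 (Cn minus Tn) and 1.86 (last contrast). Penk1 passed between Cp and Cn there, at 0.98, and also at 0.99 when only probes listed on all 9 arrays were tested. With the blank spots as background Avpr1a was 1.29 (Cn minus Tn) and 3.01 (last contrast), and 159 probes passed between Cn and Tn. Quantile normalization gave -0.11 for the last contrast of Nts, and the scan block gave 2220 probes (Cp with Cn) and 2182 (last contrast). The cause was not tested.

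Leaving out 1 array at a time, Cp minus Tp was 3.04 to 3.49 for Penk1, 3.44 to 4.14 for Nts and 4.17 to 4.47 for Avpr1a. Cp minus Cn was 0.77 to 1.21, 0.40 to 1.09 and 1.34 to 1.79 for the genes in this order, Tp minus Tn -1.45 to -1.31, 0.44 to 0.66 and -1.96 to -1.59, and Cn minus Tn 0.74 to 1.01, 3.44 to 3.73 and 0.75 to 1.2. The last contrast was 2.16 to 2.61, -0.14 to 0.55 and 3.12 to 3.57. The probes that passed numbered 1036 to 2023 (Cp with Tp), 616 to 1308 (Cp with Cn), 947 to 1424 (Tp with Tn), 146 to 322 (Cn with Tn) and 782 to 1409 (last contrast). The lowest counts came without Cp replicate 1, apart from Tp with Tn (without Tn replicate 2) and Cn with Tn (without Cn replicate 1). The other neuropeptide genes that passed numbered 8, 5 to 6, 4 to 6, 0 and 8.

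With the replicate number as a block, Cp minus Tp was 3.30 for Penk1, 3.81 for Nts and 4.34 for Avpr1a, 2202 probes passed there, and the calls of the 3 genes were as without it in all 5 comparisons. Empty cells left missing, no filter and the 8 arrays of the study moved no result, and Avpr1a gave no value among probes listed on all 9 arrays. Higher and lower calls in Tp against Tn were 733 and 843 after quantile normalization, 537 and 560 with the blank spots, and 59 and 66 with the ring, against 527 and 938 in the processed values. In Cp against Tp they were 26 and 60 with the ring, and in Cp against Cn 3 and 29. In Cn against Tn they were 190 and 168 after quantile normalization and 20 and 18 with the ring, against 121 and 171 in the processed values. For the last contrast they were 401 and 617 with the blank spots and 14 and 30 with the ring, against 684 and 693.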
